A study of Mus musculus with 5 samples.

Results

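Cytosolic ribosomal proteins are the protein components of the ribosomes that translate nuclear-encoded mRNA, and their genes were followed here in tibialis anterior (TA) muscle, a fast-twitch muscle of the lower leg. They were taken by symbol, as every row of the gene table whose name follows the pattern of Rpl or Rps with a number and at most 1 of the letters a, x, l or y, together with Rplp0, Rplp1, Rplp2, Rpsa and Rpl3l, and without rows marked as pseudogenes by -ps. The pattern found 80 genes among the 17015 of the table. Rps4l, annotated as a transcribed processed pseudogene with no coding transcript, carries no -ps and stayed in. The pattern uses no measured value. Levels are in FPKM, fragments per kilobase of transcript scaled to library size. Of the 80, 79 averaged 0.5 FPKM or more over the libraries and were tested, and Rpl39l lay under that minimum. A few genes of the same ribosome have symbols outside the pattern, among them Rps3a1, Fau and Rack1, and these are given separately.

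Bulk RNA was sequenced from TA muscle of sedentary male mice at 8 weeks of age, as 3 WT control libraries and 2 libraries with the label skmNrip1-/-. All 5 come from a floxed line in which exon 4 of Nrip1, the gene of the nuclear receptor co-regulator RIP140, is flanked by loxP sites. The floxed mice were C57BL/6J, and they were crossed to Cre mice of C57BL/6JN. WT control mice were littermates that carried the floxed alleles without Cre, and skmNrip1-/- mice carried in addition a Cre transgene under the myogenin promoter, which is active in differentiating skeletal muscle cells, so other cells of the muscle keep the intact gene. The comparison asks what loss of RIP140 in skeletal muscle does to the muscle's transcripts. The study's legend gives 3 mice per group, and 2 skmNrip1-/- libraries were analysed here. The labels do not say which mouse each library came from, so the p-values measure the spread between these libraries.

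The targeted gene went against its label. In WT control Nrip1 stood at 4.64, 7.69 and 6.55 FPKM, while the libraries labelled skmNrip1-/- had 25.3 and 22.5 FPKM, a log2 fold change of 1.94 ± 0.21 (SE, limma adjusted p = 0.0261). The groups did not overlap, and the log2 fold change stayed between 1.74 and 2.09 with any single library left out. With limma the call was lost in 3 of these smaller fits, without WT control replicate 3 (adjusted p = 0.146), without skmNrip1-/- replicate 1 (adjusted p = 0.204) and without skmNrip1-/- replicate 2 (adjusted p = 0.142), and also without the eBayes trend (adjusted p = 0.0769). The table holds 1 value per gene, so the deleted exon cannot be told apart from the rest of the transcript. Every direction below is therefore that of the libraries labelled skmNrip1-/- against those labelled WT control. Depth per library is not given by FPKM.

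A ribosome is built from a small (40S) subunit that reads the mRNA and a large (60S) subunit that forms the peptide bond. Each subunit needs its proteins in matched amounts, and cells make them from many unlinked genes whose mRNAs begin with a terminal oligopyrimidine (TOP) tract, a run of C and T bases at the first transcribed base through which mTORC1 and LARP1 set their translation together. Skeletal muscle and heart use a particular large-subunit protein, Rpl3l, a paralog of the ubiquitous Rpl3, which sits near the peptidyl transferase centre. The 80 genes lie on 19 chromosomes of GRCm38.

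Rpl3l and Rpl3 are a pair in which a ribosomal protein stands in for another. The first 120 coding bases of each are shown 5′ to 3′ from the GENCODE M21 transcripts. They are aligned without gaps, with the bases that differ in capitals.
Rpl3: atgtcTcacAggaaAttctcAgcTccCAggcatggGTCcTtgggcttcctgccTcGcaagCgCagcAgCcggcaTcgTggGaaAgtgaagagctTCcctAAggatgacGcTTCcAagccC
Rpl3l: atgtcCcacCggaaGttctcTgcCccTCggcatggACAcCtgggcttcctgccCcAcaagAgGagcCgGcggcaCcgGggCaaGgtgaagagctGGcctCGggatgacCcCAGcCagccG
In these 120 bases 31 differ. Over the 1209 aligned coding bases 73.7% are identical, and the longest identical run is 22 bases. The 2 genes share no word of 31 bases, so no stretch of a read that long is common to both. Rpl3 lies on the minus strand of chromosome 15 (chr15:80077791-80091868). Rpl3l lies on the plus strand of chromosome 17 (chr17:24727820-24736143), 5890 bases beyond the end of Rps2, another member.

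The starts of transcription are shown for genes whose values are described below or whose start holds the letters searched, as 20 bases before and 20 bases from the start, from RefSeq on GRCm38.p6, with the letters CTTTC in capitals.
Rpl28 (chr7:4792945-4792984, plus strand): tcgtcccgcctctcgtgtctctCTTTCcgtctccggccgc
Rplp2 (chr7:141447631-141447670, plus strand): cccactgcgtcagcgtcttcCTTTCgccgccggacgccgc
Rpl35 (chr2:39005112-39005151, minus strand): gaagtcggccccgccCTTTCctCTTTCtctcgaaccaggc
Rpl3l (chr17:24727806-24727845, plus strand): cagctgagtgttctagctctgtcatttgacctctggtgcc
Rpl10 (chrX:74270796-74270835, plus strand): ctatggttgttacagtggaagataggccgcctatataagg
Of the members, 59 had a promoter sequence in the RefSeq table, in 71 windows. CTTTC, as it would stand in a TOP tract on the coding strand, was found within 30 bases of the start in 23 of the 71 windows (32.4%) and in 7.93% of the windows of all genes. Read on the other strand it was found in 8.45% of member windows and in 7.42% of all. CCGGAAG, letters that ETS-family factors such as GABPA are known to bind, was found on either strand in 26 of the 71 windows of 300 bases (36.6%) and in 8.86% of all 32851 windows. No member window held an overlap of these 2 motifs, but only 0.0426% of all windows did, so its absence from 71 windows says little. A match is a description of the letters and not of binding.

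The members were among the most abundant transcripts of the muscle. Their median level was 231 FPKM over the 5 libraries, against 5.92 FPKM over all 12148 tested genes. Of the 80, 70 had a mean of at least 100 FPKM, and 7 of at least 500 FPKM. The highest 4 were Rplp1 (825 FPKM), Rpl13a (703 FPKM), Rps2 (695 FPKM) and Rps14 (612 FPKM). The 32 tested small-subunit genes had a median level of 239 FPKM and the 44 large-subunit genes one of 202 FPKM. At the low end stood Rpl3 (41.9 FPKM), Rpl5 (11.8 FPKM), Rpl12 (8.01 FPKM), Rps4l (2.51 FPKM) and Rpl39l (0.383 FPKM).

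**Figure D1:**
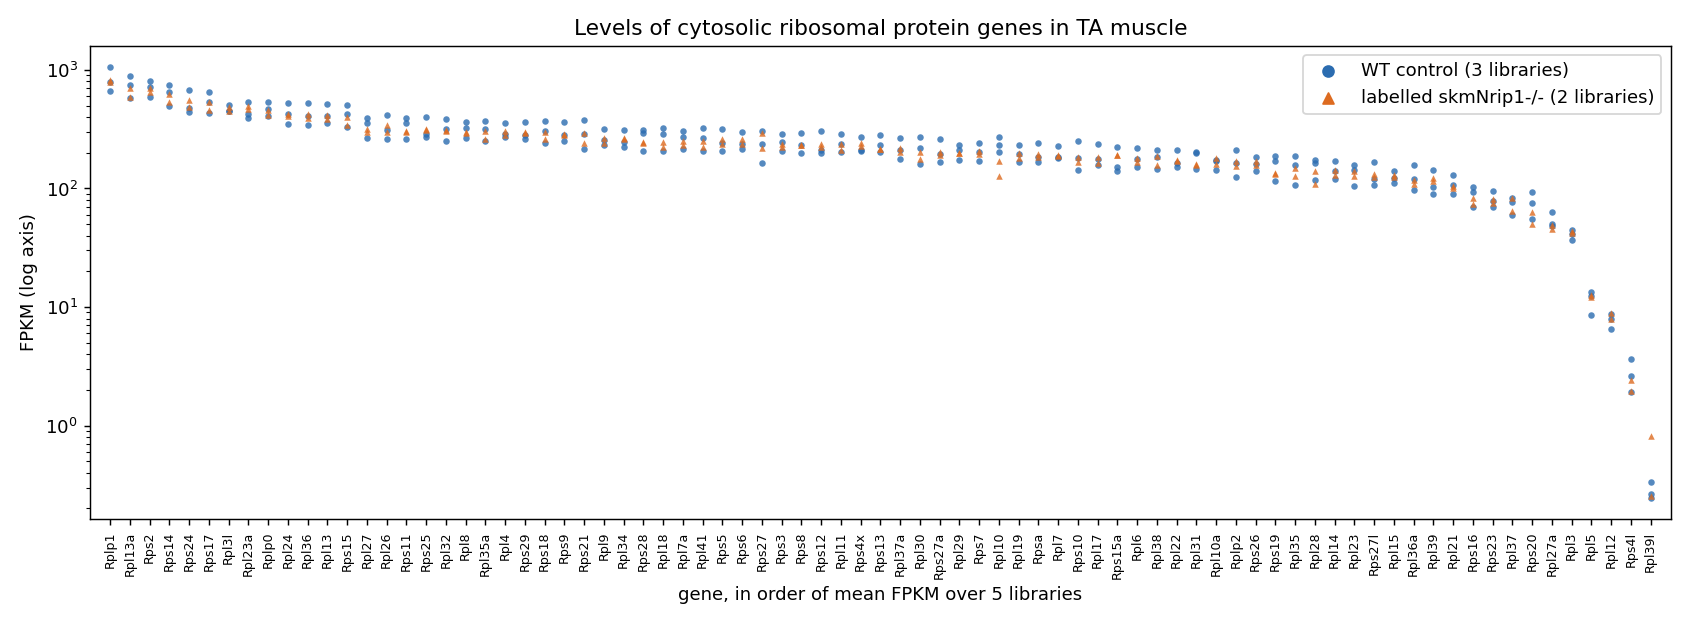
FPKM of cytosolic ribosomal protein genes in each library on a log axis, in order of their mean, with circles for the 3 WT control libraries and triangles for the 2 libraries labelled skmNrip1-/-. Most genes lie between 100 and 500 FPKM, Rpl3l stands near the top and Rpl3 among the lowest, and the triangles fall within the circles for most genes.

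Some of the low levels belong to genes with near-identical copies. Rpl5, which carries 5S RNA into the large subunit, shared 44.7% of its 31-base words with other genes, and its copy Gm15500 was listed at 216 to 274 FPKM. Rpl12, a protein at the base of the stalk, shared 49.8%, and its copy Gm10275 was listed at 243 to 392 FPKM. The split of fragments between these genes and their copies is uncertain, so the levels of Rpl5 and Rpl12 are too. Summed with its copy, Rpl5 stood at 287, 229 and 241 FPKM in WT control and at 266 and 260.0 FPKM under the skmNrip1-/- label. Rpl12 and its copy summed to 399.9, 249.7 and 312 FPKM and to 303 and 275 FPKM. Over the members, a median of 43.4% of 31-base words were shared with another gene, and 26 members shared over 50%. Rpl3l shared none.

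Rpl3l was the most even of the members across the WT control libraries. It stood at 502, 452 and 453 FPKM in WT control (469 ± 29 FPKM, SD, n = 3) and at 487 and 453 FPKM in the libraries labelled skmNrip1-/- (470.0 ± 24 FPKM, SD, n = 2). The groups overlapped, and the log2 fold change was 0.0036 ± 0.11 (SE, limma adjusted p = 0.994), with a 95% interval from -0.27 to 0.28. Its coefficient of variation over the WT control libraries was 6.13%, the lowest of the 80 genes, against a median of 19.2% over the members and 12.7% over all tested genes.

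Rpl3, the form of nearly all other tissues, was at 44.7, 37.0 and 41.6 FPKM in WT control and at 42.4 and 43.6 FPKM under the skmNrip1-/- label. These groups overlapped too, with a log2 fold change of 0.068 ± 0.12 (SE, limma adjusted p = 0.874) and a 95% interval from -0.21 to 0.34. Its coefficient of variation in WT control, 9.42%, was the second lowest.

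The level of Rpl3l was 11.2, 12.2 and 10.9 times that of Rpl3 in the WT control libraries and 11.5 and 10.4 times in the other group. On the log2 scale the ratio was 3.51 ± 0.085 (SD, n = 3) and 3.45 ± 0.10 (SD, n = 2), a difference of -0.065 (2-sided exact permutation test, p = 0.6). The smallest p that this exact permutation test can give with 3 libraries against 2 is 0.2. Rpl3l made up between 91.2% and 92.4% of the pair's summed FPKM in every library. The ratio and this share take the level of Rpl3 as listed, without its copies. Muscle cells and the other cells of the tissue are mixed in these libraries, so fewer cells of a type and less RNA per cell cannot be told apart. Leaving out skmNrip1-/- replicate 2 turned the difference in the log2 ratio to 0.0080.

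**Figure D2:**
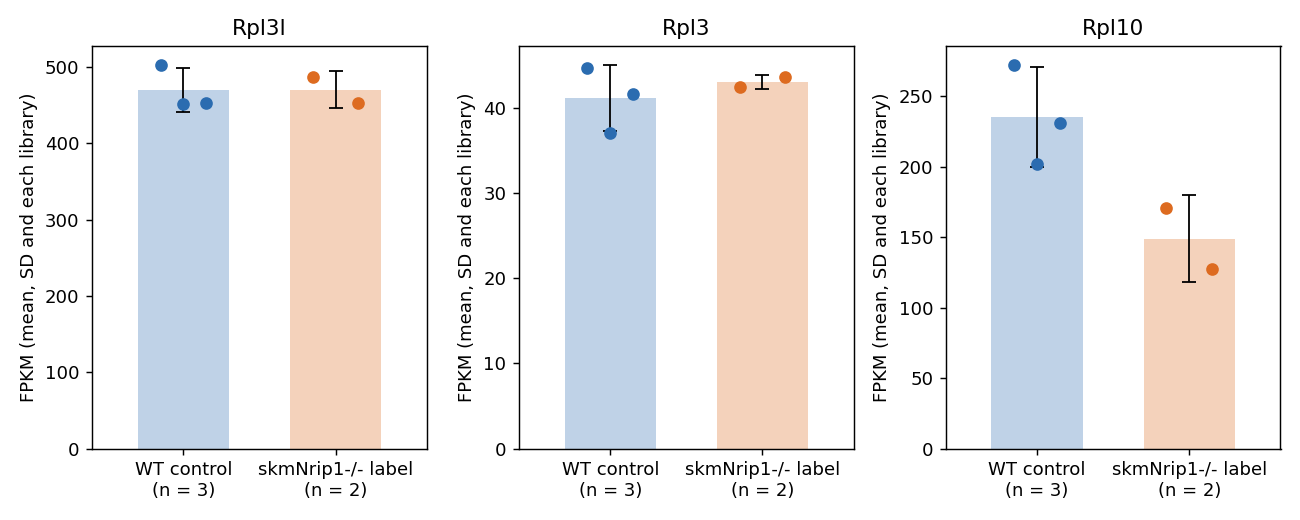
FPKM of Rpl3l, Rpl3 and Rpl10 in each library (points), with the group mean as a bar from 0 and its SD as an error bar. Rpl3l (452 to 502 FPKM) and Rpl3 (37.0 to 44.7 FPKM) overlap between the groups, and for Rpl10 both libraries labelled skmNrip1-/- (171 and 127 FPKM) lie below the 3 WT control libraries (202 to 272 FPKM).

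No member passed the test in either direction. A gene was called where its adjusted p did not exceed 0.05 and its fold change reached 1.2. By this limma called 0 of the 79 members higher, against 0.37% of all tested genes, and 0 lower, against 0.0823%. At an unadjusted p of 0.05 or less, 0 members were higher (6.57% of all tested genes) and 1 was lower (5.33% of all), and this was Rpl10. The members' median log2 fold change was -0.053, with 15 genes above 0 and 64 below, and the median of all tested genes was -0.00054. The members' quartiles were -0.11 and -0.0081. Of the 79, 74 (93.7%) lay within 0.2 of 0 on the log2 scale, as did 60.4% of all tested genes. The sign of the members' median changed without WT control replicate 1, where it was 0.072. The median was -0.18 without WT control replicate 2, -0.10 without skmNrip1-/- replicate 1 and -0.0027 without skmNrip1-/- replicate 2.

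The precision bounds what could have been seen. The standard errors of the members' log2 fold changes ran from 0.11 to 0.27, with a median of 0.18. The 95% interval lay wholly within a 1.5-fold change for 60 of the 79 members and for 52.4% of all tested genes, and within a 2-fold change for 78 members and for 86.1% of all.

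Rpl10, a large-subunit protein that joins late in assembly, had the lowest log2 fold change of the tested members. It stood at 272, 202 and 231 FPKM in WT control and at 171 and 127 FPKM in the libraries labelled skmNrip1-/-, so the groups did not overlap. The log2 fold change was -0.66 ± 0.18 (SE, limma adjusted p = 0.244, unadjusted p = 0.00856). Rpl10 was the 1 member whose skmNrip1-/- values all lay below WT control, where 14.4% of all tested genes did so, and 0 members lay wholly above, where 15.8% of all did. Rpl10 shares 75.8% of its 31-base words with other genes, foremost the pseudogene Rpl10-ps3, which was listed at 214, 136 and 192 FPKM and at 133 and 135 FPKM. Summed, the 2 genes stood at 486, 337 and 424 FPKM in WT control and at 303 and 262 FPKM, again without overlap. The fold change of Rpl10 ran from -0.88 to -0.45 with single libraries left out.

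Of the members with the next lowest log2 fold changes, none passed the test. Rps20, a protein of the small subunit's head, was at 93.9, 54.9 and 74.8 FPKM and at 63.3 and 50.4 FPKM (log2 fold change -0.37 ± 0.23, SE). Rpl28, whose start holds CTTTC, was at 174, 118 and 165 FPKM and at 140.3 and 108 FPKM (-0.29 ± 0.20, SE). In both genes WT control replicate 2 lay between the 2 libraries labelled skmNrip1-/-, so the groups overlapped. Rps19, mutated in Diamond-Blackfan anaemia, was at 188, 115 and 172 FPKM and at 132 and 135 FPKM (-0.21 ± 0.21, SE). Rps4l, a low copy of Rps4x given below, had a log2 fold change of -0.27 ± 0.27 (SE).

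At the other end of the tested members, the values were nearer to 0. Rps15a was at 224, 139 and 153 FPKM and at 192 and 191 FPKM (log2 fold change 0.19 ± 0.21, SE). Rps27 was at 303, 236 and 165 FPKM and at 296 and 218 FPKM (0.16 ± 0.27, SE). Rpl5, Rpl12 and Rpl39 followed with log2 fold changes of 0.14, 0.12 and 0.11. All 5 overlapped between the groups. Rps27 shares 50.1% of its words with other genes, foremost Rps27rt, and the split between them is uncertain. Their sum was 603, 427 and 408 FPKM in WT control and 514 and 493 FPKM under the skmNrip1-/- label, so WT control replicate 3 lay close to WT control replicate 2.

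The stalk and the named structural proteins showed the same overlap. Rplp0 anchors the stalk of the large subunit, where Rplp1 and Rplp2 dimers recruit the elongation factors. Rplp0 was at 539, 411 and 468 FPKM in WT control and at 459 and 418 FPKM (log2 fold change -0.10). Rplp1 was at 1049, 669.9 and 788 FPKM and at 826 and 790.1 FPKM (-0.024). Rplp2 was at 210.0, 125 and 165 FPKM and at 154 and 172 FPKM (-0.0043). Rpsa, a small-subunit protein also known as a laminin receptor, was at 239.7, 167 and 183 FPKM and at 197 and 186 FPKM (-0.021). By subunit, the median log2 fold change was -0.057 over 44 large-subunit genes, -0.048 over 32 small-subunit genes and -0.024 over the 3 stalk genes.

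Several members have a paralog, a second gene for nearly the same protein, and the shares of the pairs can be read per length. Rps27l, a stress-responsive relative of Rps27, was at 167, 107 and 120.02 FPKM and at 132 and 124 FPKM, and made up 30.8% to 42.1% of the pair with Rps27. Rps27rt, listed at 191 to 300 FPKM, is left out of this pair. The share therefore depends on the uncertain split of fragments between Rps27 and Rps27rt. Rpl22l1 was at 122, 77.7 and 95.8 FPKM and at 108 and 106 FPKM, between 33.9% and 38.2% of the pair with Rpl22. Rpl36al was listed higher than Rpl36a, with 61.8% to 70.5% of the pair. Rpl36a shares 87.6% of its 31-base words with other genes. Among them is Rpl36a-ps2, listed at 43.6 to 76.4 FPKM and left out of the pair, so this share is uncertain too. Rpl36al was at 307, 195 and 288 FPKM in WT control and at 205 and 178 FPKM under the skmNrip1-/- label, where the groups overlapped (log2 fold change -0.43 ± 0.21, SE, limma adjusted p = 0.488).

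Other paralogs, with which the pseudogene Rps4l is counted here, were minor. Rpl7l1, at 17.2, 17.8 and 18.8 FPKM and at 18.8 and 20.1 FPKM, made up 7.03% to 9.60% of the pair with Rpl7. Rps4l, at 3.68, 1.90 and 2.61 FPKM and at 2.41 and 1.95 FPKM, made up 0.840% to 1.34% of the pair with the X-linked Rps4x. Rpl39l, known from the testis, was at 0.247, 0.265 and 0.333 FPKM and at 0.256 and 0.814 FPKM, at most 0.660% of the pair with Rpl39. Its highest value is from skmNrip1-/- replicate 2 alone, and it was not tested. Among the 7 pairs measured, Rpl3l held the highest share of its pair.

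The ribosomal proteins with other symbols gave like values. Rps3a1 was at 414, 300.3 and 321 FPKM in WT control and at 351 and 339.8 FPKM (log2 fold change 0.015). Fau, made as a fusion with a ubiquitin-like protein, was at 229, 139.9 and 186 FPKM and at 159.6 and 161 FPKM. Rack1, a scaffold on the small subunit, was at 194, 154 and 158 FPKM and at 178 and 169.9 FPKM. None of the 7 genes on this list passed the test.

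The members varied together from library to library, and more so within WT control than between the groups. WT control replicate 1 held the highest value for 76 of the 80 genes and WT control replicate 2 the lowest for 72. Both held for 70 genes (87.5%), against 7.72% of all tested genes. Both libraries labelled skmNrip1-/- lay inside the WT control range for 73 genes (91.2%), against 31.1% of all tested genes. The summed FPKM of the members was 24751, 16973 and 20294 in WT control and 20317 and 18725 under the skmNrip1-/- label. WT control replicate 1 thus had 1.46 times the sum of WT control replicate 2.

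On the log2 scale, the members' median deviation from each gene's own mean was 0.31, -0.24 and 0.016 in WT control and 0.016 and -0.086 in the other group. Large-subunit genes (0.29 and -0.23 in WT control replicates 1 and 2), small-subunit genes (0.32 and -0.25) and the stalk genes (0.36 and -0.28) had like values. The log2 difference between WT control replicates 1 and 2 had a median of 0.54 over the members. Rpl3l kept the same order with smaller steps, a log2 difference of 0.15 between these libraries, and Rpl3 had 0.27. The 10 genes without the profile were Rpl10, Rpl10a, Rpl12, Rpl27a, Rpl28, Rpl39l, Rpl5, Rpl7, Rps20 and Rps27. These counts describe 1 library each and carry no test.

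**Figure D3:**
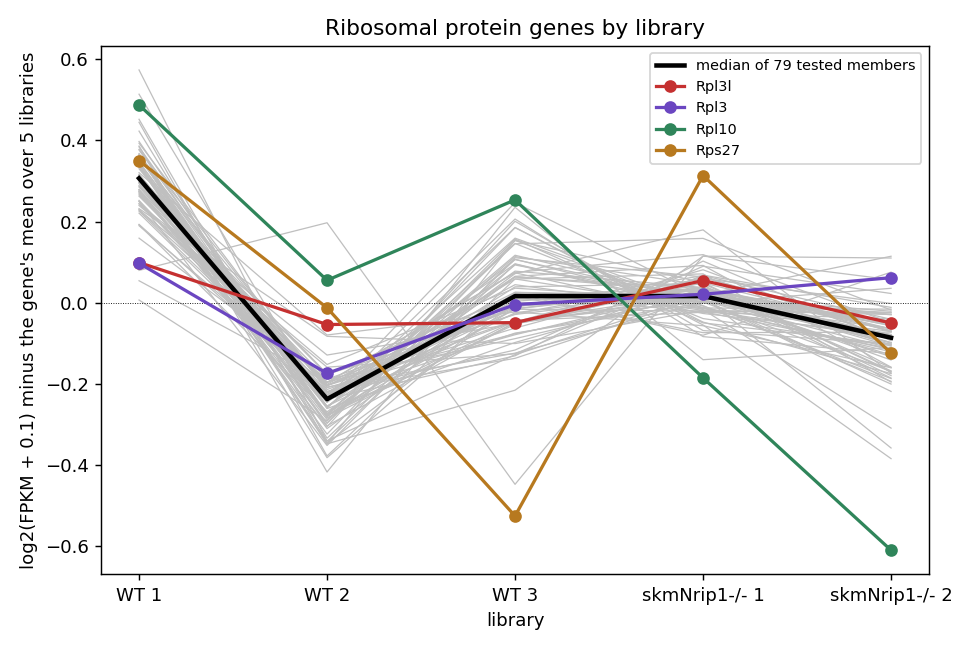
For each tested member (grey line), log2(FPKM + 0.1) in each library minus the gene's mean over the 5 libraries, with the median of the 79 genes in black and Rpl3l, Rpl3, Rpl10 and Rps27 in colour. The median runs from 0.31 in WT control replicate 1 to -0.24 in WT control replicate 2, the libraries labelled skmNrip1-/- lie between, Rpl3l stays within 0.10 of 0 and Rpl10 is lowest in both libraries labelled skmNrip1-/-.

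Other measures moved with this library profile, and their part in it was not tested. The first was transcript length. Other genes whose longest coding transcript was under 1000 bases had median deviations of 0.22 and -0.17 in WT control replicates 1 and 2, and 29.9% of these 626 genes had both the highest value in the one and the lowest in the other. Those of at least 4000 bases had median deviations of -0.099 and 0.066. The members' longest coding transcripts had a median of 914 bases, and 44 members lay under 1000 bases. These had deviations of 0.31 and -0.27, and 93.2% of them held the profile. The 122 other genes of that length with over 100 FPKM had 0.21 and -0.22, and 42.6% held it. The 28 members between 1000 and 2000 bases had 0.29 and -0.22, where 193 other genes of that length and level had 0.13 and -0.11. The second was the muscle fibre marker list, all 8 of whose genes were measured, with median deviations of 0.29 and -0.11 in the same libraries. It followed the profile in part: 6 of the 8 genes were higher in WT control replicate 1 than in replicate 2, but 2 held both the highest value in the one and the lowest in the other, and Myh1 and Myh2, myosins of fast fibres, were lowest of WT control in replicate 1. Its summed level was 69221 to 93426 FPKM in WT control and 64616 to 67959 FPKM under the skmNrip1-/- label, without overlap. As single genes, Acta1 and Ckm lay wholly lower under that label, as did 14.4% of all tested genes, and the others overlapped. Log2 fold changes were above 0 for 2 of the 8. At an unadjusted limma p of 0.05 or less 0 of the 8 were lower, against 5.33% of all tested genes.

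Markers of other cells were low beside these. Summed levels in WT control and under the skmNrip1-/- label were 67.1 to 76.6 and 63.2 to 71.3 FPKM for 4 endothelial markers, 153 to 221 and 181 to 242 FPKM for 4 fibroblast markers, and 13.7 to 24.5 and 17.6 to 21.1 FPKM for 5 macrophage markers. The 4 satellite cell markers summed to 19.0 to 20.96 and 20.2 to 20.99 FPKM, the 4 adipocyte markers to 7.14 to 13.4 and 11.4 to 11.5 FPKM, the 3 Schwann cell markers to 11.9 to 18.3 and 9.28 to 13.7 FPKM, and the 4 lymphocyte markers to 0.451 to 0.779 and 0.419 to 0.551 FPKM. Most of the satellite cell sum was Cd34, at 17.0, 18.2 and 18.9 FPKM in WT control and at 18.0 and 18.7 FPKM. Pax7 (0.383, 0.386 and 0.384 against 0.237 and 0.314 FPKM) and Myf5 lay wholly lower under the skmNrip1-/- label. Vcam1 lay wholly higher, at 0.991, 1.24 and 1.11 against 1.47 and 1.49 FPKM. Wholly lower were 14.4% of all tested genes, and wholly higher 15.8%. The 3 tested adipocyte markers followed the members' profile, with the highest value in WT control replicate 1 and the lowest in WT control replicate 2. The 4 erythroid markers, genes of haemoglobin, did not overlap in sum, at 509.8 to 762 and 825 to 993 FPKM. Of all tested genes, 15.8% lay wholly higher under the skmNrip1-/- label. At an unadjusted limma p of 0.05 or less, 3 of the 4 were higher (75%, against 6.57% of all tested genes), and 0 were called.

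Lists of other parts of protein synthesis were set beside the members. Translation initiation factors (36 genes, all tested) had 1 gene called higher (2.78%, against 0.37% of all tested genes) and 0 lower (against 0.0823%). At an unadjusted p of 0.05 or less the list had 1 gene higher (2.78%, against 6.57% of all) and 1 lower (2.78%, against 5.33%). Its median log2 fold change was -0.046. The called gene was Eif3i, a subunit of the factor that prepares the small subunit for mRNA, at 82.2, 65.8 and 74.1 FPKM in WT control and at 172 and 156 FPKM under the skmNrip1-/- label (log2 fold change 1.15 ± 0.13, SE, limma adjusted p = 0.0261). The groups did not overlap, and the log2 fold change stayed between 1.07 and 1.23 with any single library left out. The call was lost in the smaller fits without WT control replicate 3 and without either library labelled skmNrip1-/-, and without the eBayes trend (limma adjusted p = 0.0818). The lowest on that list was Eif6, which keeps the large subunit apart until it is mature (-0.32, not called).

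Elongation and termination factors (10 genes), ribosome biogenesis factors (40 genes) and mTOR signalling and TOP mRNA control (17 genes) had 0 genes called by limma in either direction, with medians of 0.027, 0.012 and -0.046. At an unadjusted p of 0.05 or less these 3 lists had 0, 1 and 1 genes higher and 0, 2 and 2 lower, where 6.57% of all tested genes were higher and 5.33% lower, so counts this small say little about the lists. Among elongation and termination factors the extremes were Abce1, which recycles ribosomes (0.17), and Eef2k, the kinase of the elongation factor eEF2 (-0.32). Among biogenesis factors they were Polr1a, the largest subunit of RNA polymerase I (0.97, adjusted p = 0.0953), and Bop1, needed for the large subunit's rRNA (-0.39). Among mTOR genes they were Deptor, which binds and inhibits mTOR (0.66, adjusted p = 0.0999), and Ddit4, a stress-induced inhibitor of mTORC1 (-0.48).

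The mitochondrial ribosome is a separate machine, whose proteins are also nuclear genes. Of its 78 genes, 0 were called. At an unadjusted p of 0.05 or less 12 were higher (15.4%, against 6.57% of all tested genes) and 1 was lower (1.28%, against 5.33%), with a median log2 fold change of 0.083 and 54 genes above 0. Its extremes were Mrpl1 (0.58) and Mrps25 (-0.48). Proteasome subunits, 37 of 38 tested, had 0 called, 0 higher and 1 lower at that p, a median of -0.040, and the extremes Psma4 (0.20) and Psmd8 (-0.43). The profile of WT control replicate 1 highest and WT control replicate 2 lowest held for 33.3% of the mitochondrial ribosomal genes, 32.4% of the proteasome genes and 22.2% of the initiation factors. It held for 5 of the 7 cytosolic ribosomal proteins outside the symbol pattern.

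**Figure D4:**
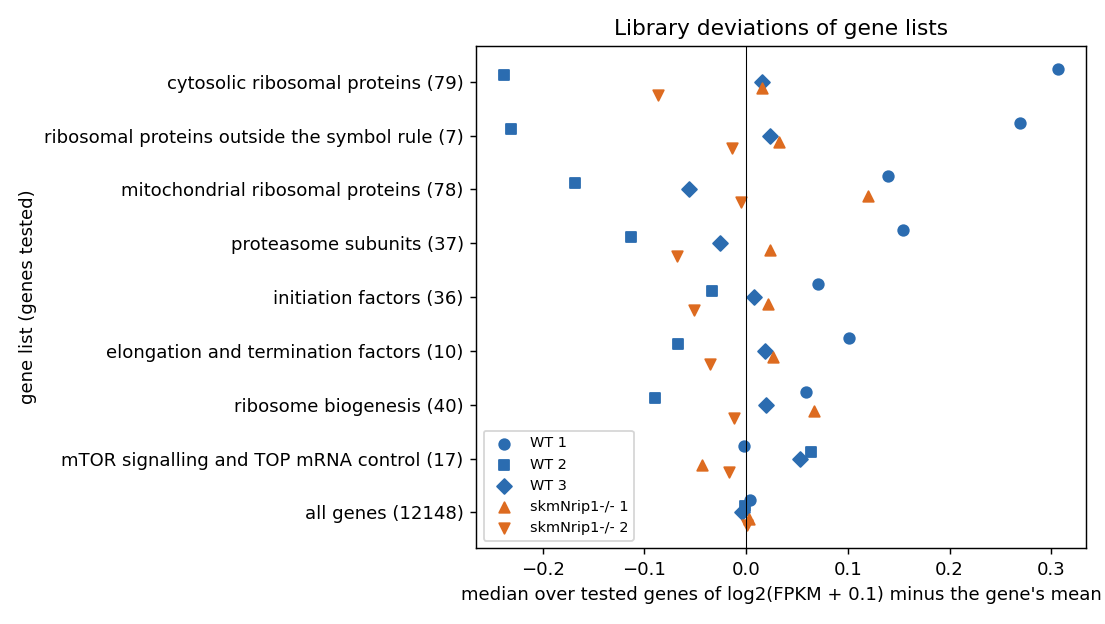
Median over the tested genes of each list of log2(FPKM + 0.1) minus the gene's mean, for each library, in blue for WT control and orange for the skmNrip1-/- label. Cytosolic ribosomal proteins span from -0.24 to 0.31, both ends in WT control libraries, while mitochondrial ribosomal proteins span from -0.17 to 0.14 and all tested genes stay near 0.

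The deposited FPKM already carry a scaling: the median ratio to each gene's geometric mean was 1.002 in all 5 libraries, while the FPKM sums ran from 969144 to 1288040. How the members compare between groups depended on this choice. Mitochondrially encoded genes took 47.2%, 50.7% and 45.4% of the FPKM sum in WT control and 58.6% and 60.9% under the skmNrip1-/- label. The members took 2.16%, 1.65% and 2.09% of the sum in WT control (1.97% ± 0.28, SD, n = 3) and 1.58% and 1.46% in the other group (1.52% ± 0.086, SD, n = 2), without overlap. With mitochondrially encoded genes left out of the sum, the members took 4.10%, 3.34% and 3.83% in WT control (3.76% ± 0.38, SD, n = 3) and 3.81% and 3.72% (3.77% ± 0.062, SD, n = 2), with overlap.

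The fold changes moved accordingly. With every library rescaled to an equal FPKM sum, all 79 tested members had log2 fold changes below 0, with a median of -0.35. The median of all tested genes moved to -0.29, so most of them lay below 0 too. At an unadjusted p of 0.05 or less, 43 members were lower and 0 higher, where 29.1% of all tested genes were lower. None of the 79 was called after limma's adjustment, the nearest being Rpl10 (-0.96, adjusted p = 0.0531). Relative to the median of all tested genes the members' median stood at -0.062, against -0.053 as deposited. Rescaled to an equal sum without mitochondrially encoded genes, the members' median was 0.023 and that of all tested genes 0.074, and 32 members were below 0.

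**Figure D5:**
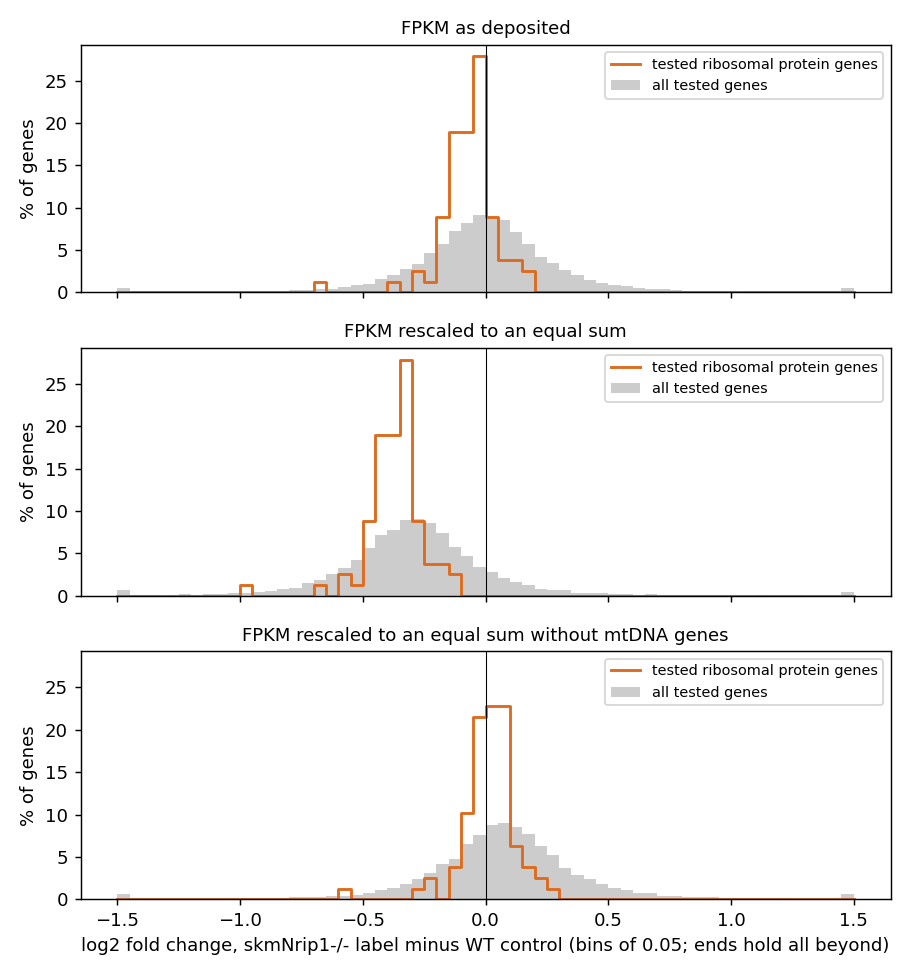
Share of genes, in percent, by log2 fold change of the skmNrip1-/- label against WT control, for all tested genes (grey bars) and for the 79 tested ribosomal protein genes (orange line), under 3 scalings of FPKM. The members form a narrow peak near the middle of all genes, at a median of -0.053 as deposited, -0.35 at an equal sum and 0.023 at an equal sum without mitochondrially encoded genes, with Rpl10 apart on the left.

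Genes with a profile like that of Rpl3l were sought among 4557 other genes that averaged 10 FPKM or more. By the correlation of log2(FPKM + 0.1) over the 5 libraries, the closest were Dcun1d5, Mrps15, Rheb, Atf4 and Hikeshi, with r between 0.989 and 0.992. With so few points, which share their scaling, this is a description of likeness, and none of the 5 is a cytosolic ribosomal protein gene.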

How the data were processed

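Total RNA of TA muscle was sequenced by the authors as 150-base paired ends, quantified with Salmon 1.10.2 on mm10 with gene-level summaries from tximport. FPKM per gene and library were deposited by the authors, and how these were computed is not given in the sources used here. Their log2 fold changes and adjusted p-values (DESeq2 1.44.0), also deposited, were not used. Libraries were grouped by their labels. FPKM hold no read counts, so no counting intervals were made. From low values of single-transcript genes, the fragments behind 1 FPKM were roughly 0.815 to 1.10 of those in WT control replicate 1, each from a commonest ratio held by only 26 to 36 of 240 to 274 genes, and absolute depth is unknown.

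limma 3.58.1 in R 4.3.3 (lmFit, eBayes with trend) was run on log2(FPKM + 0.1) with the 5 libraries and no covariates, over the 12148 genes averaging 0.5 FPKM or more, and p-values were adjusted by Benjamini-Hochberg. Fold changes on this scale understate low genes. The Rpl3l to Rpl3 ratio was tested by exact permutation (scipy 1.17.1). Of 17015 gene IDs, 17008 were found in GENCODE M21 (GRCm38). Shared 31-base words were counted over its transcripts as written, without regard to strand of the library, and reverse complements were not searched. Alternatives covered pseudocounts, minimum levels, scalings, moderation, a replicate block and each library left out.

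The members and lists were chosen with earlier results of these data known. Genes were named by a rule: Nrip1, Rpl3l and Rpl3, stalk proteins and Rpsa, paralogs, ribosomal proteins with other symbols, called members, the 5 largest and 5 smallest changes, the 5 highest levels, genes under the minimum, list extremes and the 5 genes most like Rpl3l. Of the genes this rule names, 2 are not reported here. Other members named for exceptions, and Gm15500, Gm10275, Rpl10-ps3, Rps27rt and Rpl35, were chosen after their values or sequences were seen.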

Additional observations from a re-analysis of the deposited data

How the results depend on the processing

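No setting called a member, with or without the fold threshold, and the members' median log2 fold change ran from -0.18 to 0.072 with single libraries left out. Rescaling to an equal FPKM sum moved the median to -0.35 and the members lower at an unadjusted p of 0.05 or less to 43, from 1. At an equal sum 29.1% of all tested genes were lower at that p, against 5.33% as deposited. For fits with single libraries left out no such share is given, so their counts cannot be called particular to the members. With single libraries left out those lower numbered 0 to 10 and those higher 0 to 2, and the difference in the Rpl3l to Rpl3 log2 ratio ran from -0.14 to 0.0080. Genes called on the other lists numbered 1 as reported (Eif3i), 2 at an equal sum (with Ddit4, lower), 0 without the eBayes trend, 0 to 1 with single libraries left out. The cause was not tested. The sign of single genes near 0 changed with the scaling. At an equal sum the log2 fold change was -0.30 for Rpl3l, -0.23 for Rpl3, -0.19 for Rpl39, -0.25 for Rps4x, -0.28 for Rps3a1, -0.25 for Rack1, -0.16 for Rpl22l1, -0.18 for Rpl7l1, -0.14 for Rps27, -0.18 for Rpl12, -0.15 for Rpl5, -0.11 for Rps15a and -0.094 for Psma4. Without mitochondrially encoded genes in the sum it was 0.052 for Rplp1, 0.071 for Rplp2, 0.055 for Rpsa, 0.062 for Rps27l, 0.071 for Rpl22, 0.036 for Rpl7 and 0.032 for Rps2.

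The groups share replicate numbers 1 and 2, but libraries of different genotype come from different mice, so the numbers were not taken as pairs. Over all tested genes the deviations of same-numbered libraries correlated at 0.065 and 0.095. With 2 libraries under the skmNrip1-/- label their deviations mirror each other, so these values cannot decide on pairing. With the replicate block, 0 members were called higher and 0 lower, the members' median was -0.071, the difference in the Rpl3l to Rpl3 log2 ratio was -0.10, and 0 genes of the other lists were called. Nrip1 was not called in that fit (1.98, adjusted p = 0.128 by limma). With the block the log2 fold change was -0.020 for Rpl3l, 0.0058 for Rplp2, -0.0070 for Rps4x, -0.029 for Rps3a1, -0.074 for Rps27 and -0.052 for Rpl5.

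With single libraries left out, the log2 fold change ran from -0.049 to 0.056 for Rpl3l, -0.0052 to 0.13 for Rpl3, -0.17 to 0.15 for Rplp1, -0.20 to 0.18 for Rplp2, -0.13 to 0.13 for Rpsa, -0.15 to 0.17 for Rps27l, -0.28 to 0.063 for Rpl36a, -0.037 to 0.30 for Rpl39, -0.023 to 0.17 for Rps4x, -0.10 to 0.13 for Rpl22 and -0.098 to 0.068 for Rpl7. It ran from -0.078 to 0.15 for Rps3a1, -0.011 to 0.16 for Rack1, -0.016 to 0.31 for Rpl22l1, -0.074 to 0.38 for Rps27, -0.0056 to 0.21 for Rpl12, -0.052 to 0.27 for Rpl5, -0.28 to 0.019 for Rps14 and -0.17 to 0.058 for Rps2. Depth behind low values, such as those of Rpl39l and Rps4l, is unknown, and with 5 libraries the intervals given above set what could be detected.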
